A study of Mus musculus with 8 samples.

Results

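The dual-specificity phosphatases are enzymes that remove phosphate from both tyrosine and serine or threonine, and 10 of their genes are described here in ischemic mouse leg muscle: Dusp1, Dusp3, Dusp6, Dusp7, Dusp8, Dusp10, Dusp13, Dusp16, Dusp18 and Dusp26. They were taken by gene symbol from the 24848 genes of the deposited tables, and all 10 were among the 13569 genes tested. Dusp18 was chosen by its expected counts, which were lower with praliciguat in these same libraries, so its difference between the groups is given as a description without a test. The other 9 were listed as relatives of Dusp18, with results of these data already known.

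The libraries came from tibialis anterior muscle of male Leprdb/db mice, a strain without functional leptin receptor signalling that becomes obese and diabetic. All animals had hind limb ischemia surgery, and muscle was taken 28 days later. In the placebo group 4 libraries came from mice on a control chow, and in the praliciguat group 4 came from mice on chow with 75 ppm of the drug, a stimulator of soluble guanylate cyclase, for 31 days from day -3. That diet was meant to match the peak plasma level of 10 mg/kg/day by mouth. The labels do not say that each library is a separate animal, and p-values therefore refer to the spread among libraries.

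Total expected counts ranged from 21099764 to 31896205 per library. All 8 markers of skeletal muscle fibre had values above 0 in all 8 libraries, with a summed level of 179770 to 200243 TPM (a scale adjusted for gene length). Praliciguat replicate 3 stood apart. Its 7 macrophage markers summed to 176 TPM against 20.1 to 66.3 TPM in the other libraries, and its 5 fibroblast markers to 2233 TPM against 339 to 1162 TPM. The titles carry numbers in a lower and an upper run, with placebo replicates 1 and 2 and praliciguat replicates 1 and 2 in the lower one. The labels do not say what the numbers mean, and values within each run are given below.

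Dual-specificity phosphatases fall into the MAP kinase phosphatases and a group called atypical. The former carry a docking domain for MAP kinases and switch off ERK, p38 or JNK, the kinases that pass growth and stress signals to the nucleus. Many of them are themselves induced by the kinase they switch off, which makes a feedback loop. The atypical members are small, lack that docking domain and act on more varied targets. In muscle, MAP kinase signalling takes part in growth, repair and the response to stress.

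The sequence before the start site is shown for Dusp18 and Dusp1, because they were the listed genes whose groups did not overlap, and for Dusp8 as the other listed gene with the same motif as Dusp1. These are the 250 bases before a start site in RefSeq's promoter table on GRCm38.p6, the assembly of mm10, 5′ to 3′ on the gene's strand. For Dusp1 that start is the outermost one of its RefSeq span, while for Dusp18 and Dusp8 it lies 305 and 623 bases inside the span, so both windows fall within the span. Dusp18 is read from chr11:3894990-3895239 (plus strand), Dusp1 from chr17:26508473-26508722 (minus strand) and Dusp8 from chr7:142095285-142095534 (minus strand). Capitals mark GTTGCC in Dusp18, an arm of the X-box that RFX factors bind, and TGACGTCA, the cAMP response element, in Dusp1 and Dusp8.
Dusp18: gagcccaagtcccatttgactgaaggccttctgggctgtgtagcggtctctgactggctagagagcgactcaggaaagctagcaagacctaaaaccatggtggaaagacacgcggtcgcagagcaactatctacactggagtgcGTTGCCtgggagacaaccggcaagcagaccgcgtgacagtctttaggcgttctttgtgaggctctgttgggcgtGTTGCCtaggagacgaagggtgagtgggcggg
Dusp1: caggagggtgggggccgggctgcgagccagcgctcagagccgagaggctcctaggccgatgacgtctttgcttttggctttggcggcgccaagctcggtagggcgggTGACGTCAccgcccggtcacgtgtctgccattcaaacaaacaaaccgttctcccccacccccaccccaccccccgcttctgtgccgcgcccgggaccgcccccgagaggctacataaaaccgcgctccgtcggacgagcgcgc
Dusp8: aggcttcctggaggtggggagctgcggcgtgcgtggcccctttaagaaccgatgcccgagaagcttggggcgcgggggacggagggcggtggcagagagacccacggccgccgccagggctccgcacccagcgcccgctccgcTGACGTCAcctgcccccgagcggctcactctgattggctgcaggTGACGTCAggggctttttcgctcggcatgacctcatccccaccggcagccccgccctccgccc

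The search covered both strands of the 250 bases, and 9 of the 10 genes had at least 1 such window (12 windows in all). GTTGCC occurred 2 times before Dusp18, from base 106 to base 101 and from base 32 to base 27 before the start. It occurred once before Dusp6, before Dusp10 and in 1 of the windows of Dusp13, so 4 of the 9 genes held it. Of 32851 windows of the same length, 10.4% held it at least once and 0.74% at least 2 times. It was picked after the sequence had been read. TGACGTCA occurred once before Dusp1 and 2 times before Dusp8, against 1.55% of all windows with at least 1 copy and 0.0304% with at least 2. The CArG box, which serum response factor binds, was in none of the 12 windows (1.47% of all windows). CAGCTG, an E-box that myogenic factors bind, was in 1 of the windows of Dusp13 (13.0% of all windows). The motifs do not overlap in these windows, and a match describes letters only.

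By level per gene length, Dusp13 and Dusp1 were the most abundant of the 10 in placebo muscle, with medians of 144 and 128 TPM over the 4 libraries. Dusp3 followed at 98.1 TPM, Dusp26 at 69.9 TPM, Dusp7 at 31.9 TPM, Dusp10 at 23.4 TPM and Dusp8 at 19.5 TPM. Dusp6 (13.5 TPM), Dusp16 (11.3 TPM) and Dusp18 (10.3 TPM) were the lowest. Between neighbours in this order only Dusp1 (119.75 to 160.79 TPM) and Dusp3 (84.57 to 108.83 TPM) had ranges over the placebo libraries that did not overlap. With praliciguat the order of the medians was the same except that Dusp1 (164 TPM) lay above Dusp13 (149 TPM). Dusp18 was last in both groups, at a median of 3.87 TPM with praliciguat.

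**Figure D1:**
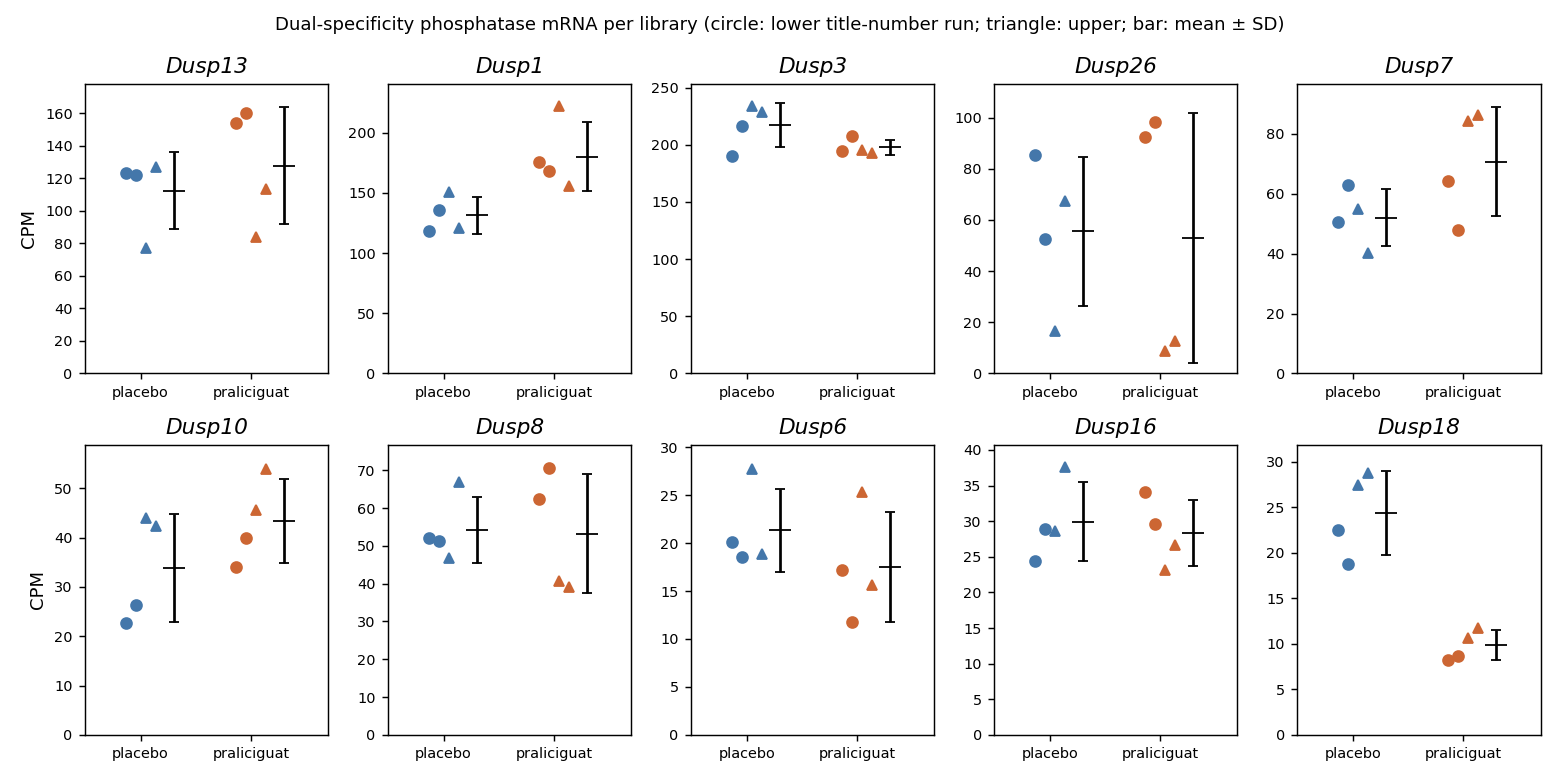
CPM (counts relative to the scaled library size) of the 10 genes by library, in order of placebo TPM. Each point is 1 library, circles are the lower and triangles the upper run of title numbers, and the bar is the mean ± SD of 4 libraries. The praliciguat points of Dusp18 (8.24 to 11.8 CPM) all lie below its placebo points (18.7 to 28.7 CPM), and those of Dusp1 all lie above.

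Dusp18, also called LMW-DSP20, is a small atypical phosphatase that has been located in mitochondria. It lies on chromosome 11 from 3894935 to 3901299 (RefSeq) and no other GENCODE gene overlaps its GENCODE span. The placebo libraries had 22.5, 18.7, 27.5 and 28.7 CPM in replicates 1 to 4. The praliciguat libraries had 8.24, 8.71, 10.6 and 11.8 CPM. The groups did not overlap, and the lowest placebo library was well above the highest praliciguat library. The means were 24.4 ± 4.62 and 9.84 ± 1.66 CPM (SD, n = 4 each), a 2.47-fold lower level with praliciguat (log2 fold change -1.31 ± 0.17 SE). These values are the reason the gene was listed. The raw counts behind them were 505 to 801 per placebo library and 210 to 365 per praliciguat library.

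Within the lower run of title numbers Dusp18 differed by -1.27 in mean log2 CPM and within the upper run by -1.32. In both groups the libraries of the upper run had more Dusp18 than those of the lower run, with means of 28.1 against 20.6 CPM in placebo and 11.2 against 8.47 CPM under praliciguat. With 1 library left out the log2 fold change stayed between -1.41 and -1.22. All of these values come from the libraries by which Dusp18 was chosen, and they are no test of it.

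Markers of slow muscle fibres moved with Dusp18. All 8 of them had a fold change below 0, in 7 of 8 the groups did not overlap, and none was at 0. Of all tested genes 44.8% were below 0, and 2.54% had groups that did not overlap with praliciguat lower. Their summed level was 1330 to 3241 TPM in placebo and 447 to 707 TPM with praliciguat. Within placebo the order was not shared: replicate 3 had the lowest slow fibre sum (1330 TPM) and the second highest Dusp18 value. Within praliciguat, replicate 1 was the lowest in both. Replicate 4 had the highest Dusp18 value there (11.8 CPM) with a slow fibre sum of 534 TPM, against 707 TPM in replicate 2 (8.71 CPM). The 7 endothelial markers, of which 7 had a fold change below 0, summed to 287 to 372 TPM and to 210 to 299 TPM. For 1 of the 7 the groups did not overlap. All 4 Schwann cell, 4 smooth muscle and 5 red blood cell markers also lay below 0, with 0 of them non-overlapping and lower. In the other sets 2 of 8 skeletal muscle fibre, 1 of 5 fibroblast, 0 of 7 macrophage and 0 of 4 adipocyte markers lay below 0. The part of these markers in the Dusp18 difference was not tested, and in bulk muscle fewer cells of a type and less RNA per cell cannot be told apart.

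The neighbours of Dusp18 on the chromosome were 1 gene of similar count and 1 with few counts. Slc35e4, a solute carrier gene on the other strand whose 3′ end lies 5724 bases beyond the GENCODE end of Dusp18, had 24.5 ± 1.52 CPM in the placebo and 29.5 ± 2.02 CPM in the praliciguat libraries (SD, n = 4), a log2 fold change of 0.27 ± 0.09 SE (edgeR adjusted p = 0.542). The groups of Slc35e4 did not overlap, where 1.32% of tested genes did so with praliciguat higher. 4921536K21Rik is on the other strand, with 141 bases between its GENCODE start and that of Dusp18. Its first 109 bases lie in the window printed above, and it overlaps the longer RefSeq span of Dusp18 by 164 bases. It had 0.391 ± 0.191 and 0.188 ± 0.149 CPM (SD, n = 4), a log2 fold change of -1.01 ± 0.71 SE (edgeR adjusted p = 0.984). Dusp21, a close relative of Dusp18, had 0 counts in all 8 libraries, which allows up to 0.0875 to 0.134 CPM per library (3 counts, counting error only).

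Among the 9 genes other than Dusp18, 0 passed an adjusted p of 0.05 in edgeR, where 0% of all tested genes were called lower and 0% higher. At an unadjusted p under 0.05 there was 1 of the 9, Dusp1, higher, where 1.95% of tested genes were higher and 3.78% lower. DESeq2 called 0 of the 9, against 0.841% of its tested genes in either direction. Their median log2 fold change was -0.028, with 5 below 0 and 4 above. The median over all 13569 tested genes was 0.020, and 44.8% of them were below 0.

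Dusp1, or MKP-1, is the MAP kinase phosphatase of the nucleus that stress and growth signals induce, and it acts on p38, JNK and ERK. It lies on chromosome 17 from 26505591 to 26508472. Placebo replicates 1 to 4 had 118, 136, 151 and 120 CPM, and praliciguat replicates 1 to 4 had 175, 168, 222 and 155 CPM. All praliciguat libraries lay above all placebo libraries, although the gap between the nearest of them was small. Of all tested genes 1.32% had groups that did not overlap with praliciguat higher. The means were 131 ± 15.4 and 180 ± 29.0 CPM (SD, n = 4). The log2 fold change was 0.46 ± 0.13 SE with a 95% interval from 0.15 to 0.76, which did not pass the threshold (edgeR adjusted p = 0.473). Over its alternatives the adjusted p ran from 0.107 by DESeq2 to 0.995 by edgeR without placebo replicate 1.

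The difference in Dusp1 was similar within the runs, 0.44 in the lower and 0.46 in the upper run of title numbers (mean log2 CPM). The highest value was that of praliciguat replicate 3, the library with the high macrophage and fibroblast sums. Without it the log2 fold change was 0.34, with an edgeR adjusted p of 0.368. The immediate early genes, a set of rapidly induced transcription factors and regulators to which Dusp1 is often counted, held 0 genes of 12 tested with an unadjusted p under 0.05. At that p in edgeR 3.78% of all tested genes were lower and 1.95% higher. Of the 12, 8 had a fold change below 0 and 4 above (median -0.077), where 44.8% of all tested genes were below 0. Egr3 and Junb had the lowest p of them, with log2 fold changes of -0.69 ± 0.41 and -0.55 ± 0.33 SE.

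**Figure D2:**
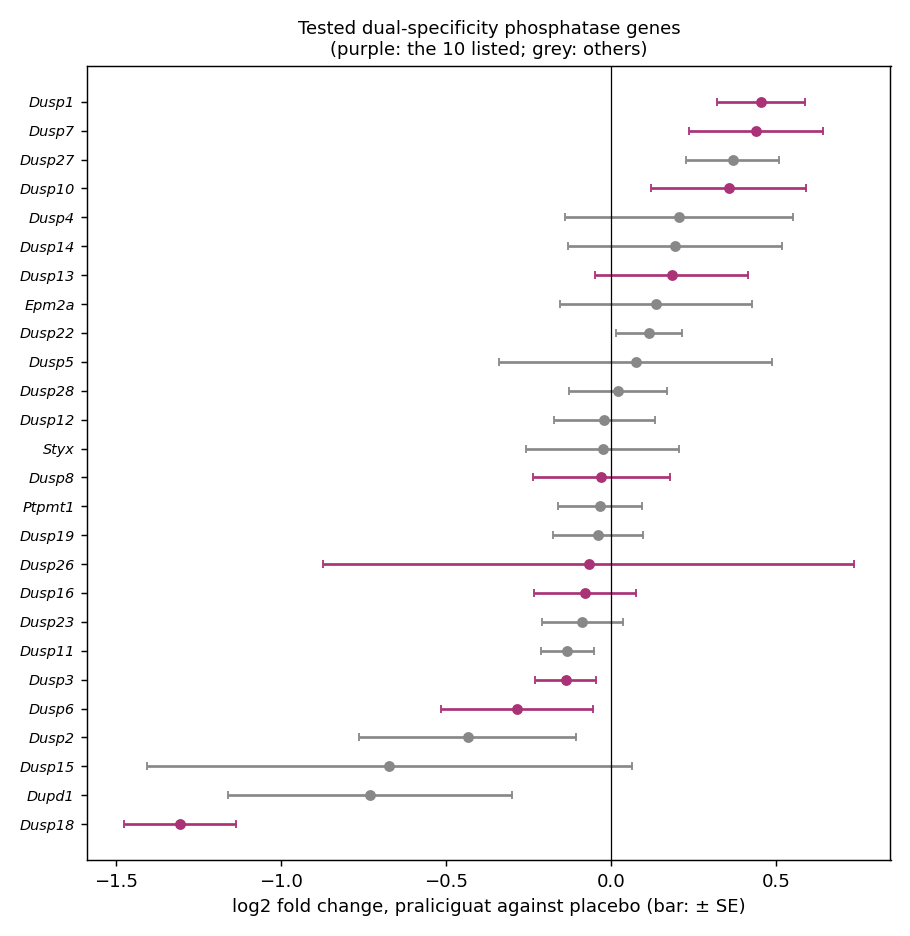
Log2 fold change of praliciguat against placebo for the 26 tested dual-specificity phosphatase genes, with bars of ± SE; the 10 listed genes are purple and the other genes grey. Dusp18 stands at -1.31, the value for which it was chosen, and the other 25 genes lie between -0.73 and 0.46.

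Dusp6 and Dusp7 are cytoplasmic phosphatases selective for ERK. Dusp6, on chromosome 10 from 99263231 to 99267489, is induced by ERK itself and is widely read as a marker of ERK output. It ranged from 18.6 to 27.7 CPM in placebo and from 11.8 to 25.4 CPM under praliciguat, with broad overlap. The highest library of each group was replicate 3. Its log2 fold change was -0.28 ± 0.23 SE (95% interval -0.80 to 0.24, edgeR adjusted p = 0.984). It was -0.14 without placebo replicate 3, -0.13 without praliciguat replicate 2 and -0.52 without praliciguat replicate 3.

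Dusp7, on chromosome 9 from 106368560 to 106375724, had 50.5, 62.9, 54.8 and 40.1 CPM in placebo replicates 1 to 4. It had 64.1, 47.9, 84.4 and 86.3 CPM in praliciguat replicates 1 to 4. The 2 praliciguat libraries of the upper run were the highest, and those of the lower run fell among the placebo values or just above them. The log2 fold change was 0.44 ± 0.20 SE (95% interval -0.019 to 0.90, edgeR adjusted p = 0.896). The difference in mean log2 CPM was -0.024 within the lower run and 0.86 within the upper run. Without praliciguat replicates 3 and 4 together, an alternative chosen after seeing the data, the log2 fold change was 0.10.

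Dusp8, Dusp10 and Dusp16 are phosphatases that prefer p38 and JNK, the stress kinases. Dusp10, or MKP-5, on chromosome 1 from 184034381 to 184075636, had 22.7, 26.4, 44.0 and 42.3 CPM in placebo and 34.1, 39.9, 45.6 and 53.9 CPM under praliciguat, replicates 1 to 4. Across all libraries the groups overlapped, while within each run both praliciguat libraries lay above both placebo libraries. The level also differed between the runs, with placebo means of 24.5 CPM in the lower and 43.1 CPM in the upper run. The log2 fold change was 0.36 ± 0.24 SE (edgeR adjusted p = 0.984), and 0.21 to 0.51 with 1 library left out. With the run as a block it was 0.40 ± 0.12 SE (edgeR adjusted p = 0.394), and 0 of the 9 genes passed in that fit, where 0.0221% of all tested genes were called lower and 0% higher.

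Dusp8, on chromosome 7 from 142079487 to 142095907, was at 46.7 to 66.8 CPM in placebo and 39.0 to 70.7 CPM under praliciguat. The praliciguat libraries were split, with 62.3 and 70.7 CPM in the lower run against 40.7 and 39.0 CPM in the upper run. The log2 fold change was -0.028 ± 0.21 SE (95% interval -0.50 to 0.44, edgeR adjusted p = 0.996), made up of 0.36 within the lower and -0.49 within the upper run (difference in mean log2 CPM). Its sign changed without any one of placebo replicate 4 and praliciguat replicates 3 and 4 (0.089, 0.084 and 0.095).

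Dusp16, or MKP-7, on chromosome 6 from 134715468 to 134807063, was at 24.5 to 37.7 CPM in placebo and 23.2 to 34.1 CPM under praliciguat. Its log2 fold change was -0.078 ± 0.16 SE (95% interval -0.43 to 0.27, edgeR adjusted p = 0.989). Inside the lower run it differed by 0.25 and inside the upper run by -0.40 in mean log2 CPM. The sign turned without placebo replicate 4 (0.054) or praliciguat replicate 3 (0.010).

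**Figure D3:**
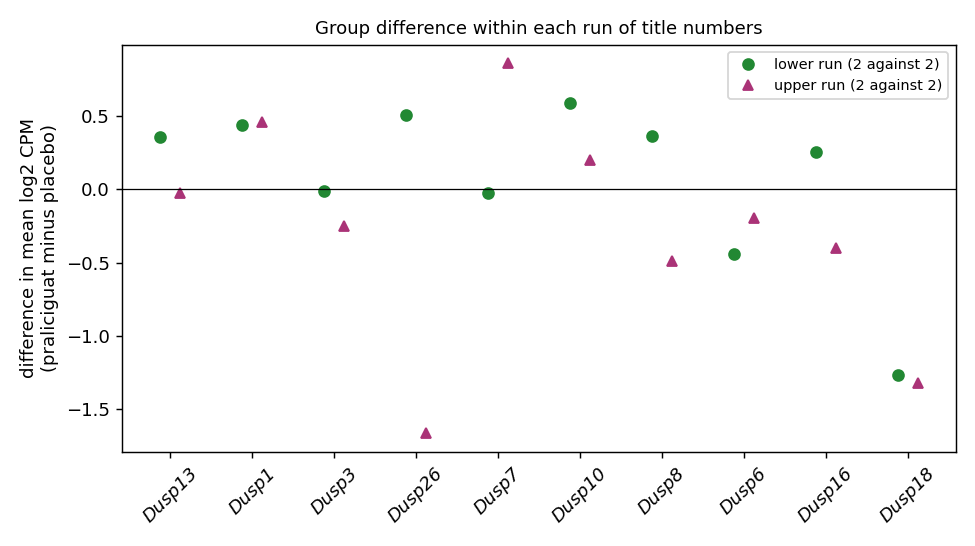
Difference in mean log2 CPM, praliciguat minus placebo, within the lower run (circles) and the upper run (triangles) of title numbers, 2 libraries against 2 in each, for the 10 genes. Dusp18 (-1.27 and -1.32) and Dusp1 (0.44 and 0.46) have nearly the same value in both runs, and Dusp26 (0.51 and -1.67) has the widest split.

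Over the 10 genes, 5 had a difference of the same sign in both runs (Dusp1, Dusp3, Dusp6, Dusp10 and Dusp18) and 5 of opposite sign. Dusp18 was chosen by its difference and its groups did not overlap. Its sign in both runs was thereby fixed, and it adds nothing to that count. Of all tested genes 40.7% had the same sign in both. What else differed between the runs is not given in the labels.

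Among the other atypical phosphatases, Dusp3, or VHR, acts on ERK and JNK and lies on chromosome 11 from 101971141 to 101987013. It had the smallest standard error of the 10, at 217 ± 19.5 CPM in placebo and 198 ± 6.80 CPM under praliciguat (SD, n = 4). The praliciguat libraries, from 193 to 208 CPM, fell within the placebo range of 190 to 234 CPM. The log2 fold change was -0.14 ± 0.09 SE (95% interval -0.35 to 0.073, edgeR adjusted p = 0.984).

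Dusp13, on chromosome 14 from 21733395 to 21748651, encodes more than 1 phosphatase from a single locus, a muscle form known as MDSP and a testis form known as TMDP. The deposited tables sum its transcripts, so the forms are not separated here. The placebo libraries had 123, 122, 77.3 and 127 CPM and the praliciguat libraries 154, 160, 83.6 and 113 CPM, replicates 1 to 4. Replicate 3 was the lowest library in each group. The log2 fold change was 0.18 ± 0.23 SE (95% interval -0.34 to 0.71, edgeR adjusted p = 0.984). It was 0.038 without placebo replicate 3, 0.083 and 0.059 without praliciguat replicates 1 or 2, and 0.34 without praliciguat replicate 3. It reached 0.48 when praliciguat replicates 3 and 4 were both dropped, a choice made after seeing the data.

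Dusp26, on chromosome 8 from 31089527 to 31097046, is an atypical phosphatase known from brain and muscle, and it had the largest standard error of the 10. Placebo replicates 1 to 4 had 85.3, 52.7, 16.8 and 67.3 CPM and praliciguat replicates 1 to 4 had 92.5, 98.1, 8.72 and 12.7 CPM. The 3 low libraries, placebo 3 and praliciguat 3 and 4, all belonged to the upper run, in which placebo 4 was not low. The group means were 55.5 ± 29.1 and 53.0 ± 48.9 CPM (SD, n = 4), and the log2 fold change was -0.067 ± 0.80 SE with a 95% interval from -1.90 to 1.76 (edgeR adjusted p = 0.997). The interval leaves room for a difference in either direction of more than the one seen in Dusp18. The sign turned without placebo replicates 1 or 4 or praliciguat replicates 3 or 4 (0.22, 0.036, 0.29 and 0.26). With the run as a block the log2 fold change was -0.72, and by limma on log2(TPM + 1) it was -0.59.

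The same 3 libraries were the highest of the 8 for summed macrophage markers, at 66.3, 176 and 40.0 TPM for placebo 3, praliciguat 3 and praliciguat 4, against 20.1 to 35.7 TPM in the other 5. They were also the highest for the 4 adipocyte markers, at 3422, 4954 and 3579 TPM against 1411 to 2970 TPM. All 7 macrophage and 4 adipocyte markers were above 0 in all 8 libraries. The part of these cells in the low Dusp26 values was not tested.

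**Figure D4:**
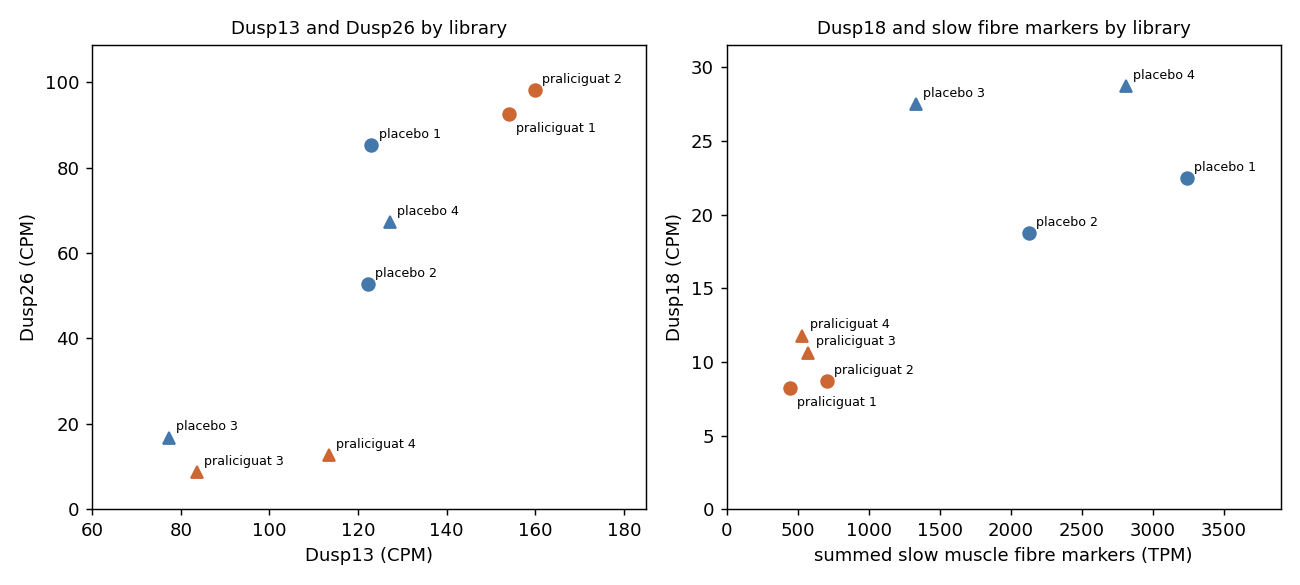
Left, Dusp26 against Dusp13 in CPM for the 8 libraries; placebo 3, praliciguat 3 and praliciguat 4 sit at 8.72 to 16.8 CPM of Dusp26. Right, Dusp18 in CPM against the summed TPM of 8 slow fibre markers; the praliciguat libraries sit together at 447 to 707 TPM. Blue is placebo, orange praliciguat, circles the lower and triangles the upper run.

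Several of the genes varied together or in opposition once the group means were taken out. The deviations of log2 CPM from the group mean had a Pearson r of 0.945 between Dusp13 and Dusp26, 0.888 between Dusp8 and Dusp26, 0.863 between Dusp10 and Dusp18, 0.803 between Dusp8 and Dusp13, and 0.799 between Dusp1 and Dusp6. The most opposed pair were the ERK phosphatase Dusp7 and the stress kinase phosphatase Dusp8, with r = -0.921, followed by Dusp6 and Dusp13 with -0.876. These are descriptions over 8 libraries that share their runs, and they are the 5 highest and 2 lowest of 45 pairs.

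The genes whose deviations were most like those of Dusp18 were Mcfd2, a cargo receptor subunit of the secretory pathway (r = 0.981), Cdkn2aip (0.971), Abhd18 (0.957), Lims1, an adaptor of focal adhesions (0.955), and Rab14, a small GTPase of endosomes (0.953). Their groups overlapped, with log2 fold changes from -0.38 to 0.10. For Dusp1 they were Map3k11, a kinase upstream of JNK (0.980), Ncam1, a cell adhesion molecule (0.963), and Cd93, a glycoprotein of endothelium (0.960). Between the groups all 3 lay opposite to Dusp1, with log2 fold changes of -0.16, -0.75 and -0.57, and only Cd93 of the 3 had groups that did not overlap. Each r is over 8 libraries, for genes with a mean log2 CPM of at least 2. These are the highest values of a search among the named tested genes at that level, and shared regulation was not tested.

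In the rest of the family 19 genes had a row, 16 of which were tested, and 0 passed the adjusted threshold in edgeR or DESeq2. Of all their tested genes edgeR called 0% and DESeq2 0.841%. The MAP kinase phosphatases Dusp2, Dusp4 and Dusp5 were scarce, with group means from 0.459 to 2.63 CPM, and Dusp9 was too low to be tested. Dusp2 and Dusp4 had log2 fold changes of -0.43 ± 0.33 and 0.21 ± 0.35 SE. Of the 13 atypical genes tested, 8 had a fold change below 0 and 5 above (median -0.024), where 44.8% of all tested genes were below 0. Dusp27, a muscle member without catalytic activity, had 67.8 ± 12.8 CPM in the placebo and 87.6 ± 7.80 CPM in the praliciguat libraries (SD, n = 4), a log2 fold change of 0.37 ± 0.14 SE (edgeR adjusted p = 0.744). It was the 1 of the 16 with an unadjusted p under 0.05 in edgeR, where 1.95% of tested genes were higher and 3.78% lower. Dupd1, another muscle phosphatase, had 14.5 ± 8.22 and 8.77 ± 3.33 CPM (SD, n = 4), a log2 fold change of -0.73 ± 0.43 SE (edgeR adjusted p = 0.975). Dusp11, which acts on RNA, was the 1 atypical gene of this list with groups that did not overlap, at 76.8 CPM in placebo and 70.1 CPM under praliciguat, where 2.54% of tested genes did so in that direction; it was named after its values were seen.

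The MAP kinases and the MAP kinase kinases that activate them showed 0 of 15 tested genes past the adjusted threshold in edgeR or DESeq2. Of all their tested genes edgeR called 0% and DESeq2 0.841%. Among the 15 there were 12 fold changes above 0 and 3 below (median 0.059), where 44.8% of all tested genes were below 0. Mapk11, or p38 beta, had 3.95 ± 0.496 CPM in the placebo and 2.54 ± 0.736 CPM in the praliciguat libraries (SD, n = 4), a log2 fold change of -0.63 ± 0.23 SE (edgeR adjusted p = 0.725), and was the 1 with an unadjusted p under 0.05, where 3.78% of tested genes were lower. Mapk14, or p38 alpha, had 143 ± 25.5 and 182 ± 36.4 CPM (SD, n = 4), a log2 fold change of 0.35 ± 0.17 SE (edgeR adjusted p = 0.928), made up of 0.79 in the lower and -0.089 in the upper run. RNA levels do not show whether a kinase is phosphorylated.

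Genes that ERK signalling induces, among them its feedback inhibitors, lay mostly below 0. Of 13 tested, 12 had a fold change below 0 and 1 above (median -0.18, against 0.020 over all tested genes), where 44.8% of all tested genes were below 0. By edgeR and by DESeq2 0 passed the adjusted threshold, where edgeR called 0% and DESeq2 0.841% of their tested genes. By edgeR 3 had an unadjusted p under 0.05, all lower, where 3.78% of tested genes were lower and 1.95% higher. They were Ccnd1, Spry4 and Etv1, the last a transcription factor named after its values were seen. Ccnd1, which encodes cyclin D1, had 14.8 ± 5.42 CPM in the placebo and 6.13 ± 3.30 CPM in the praliciguat libraries (SD, n = 4), a log2 fold change of -1.26 ± 0.40 SE (edgeR adjusted p = 0.551). Spry4, an inhibitor of signalling from growth factor receptors to ERK, had 19.4 ± 3.23 and 14.5 ± 1.53 CPM (SD, n = 4), a log2 fold change of -0.42 ± 0.14 SE (edgeR adjusted p = 0.559). Its groups did not overlap, where 2.54% of tested genes did so in that direction. Dusp6, counted among the listed genes, lay on the same side at -0.28, with groups that overlapped (edgeR adjusted p = 0.984). The other tested MAP kinase phosphatases lay on both sides. Dusp1 (0.46), Dusp7 (0.44), Dusp10 (0.36), Dusp4 (0.21) and Dusp5 (0.076) were above 0. Dusp2 (-0.43), Dusp16 (-0.078) and Dusp8 (-0.028) were below 0. Whether ERK signalling differed between the groups was not tested. The list of genes that ERK signalling induces was drawn up with earlier results of these data known.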

How the data were processed

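Per the labels' protocols, a stranded KAPA mRNA kit was used on RNA from frozen muscle (Tri Reagent). Tools listed in the submitters' processing notes are RSEM 1.2.28, STAR 2.5.3a, Trimmomatic and FastQC, with mm10 as the build. The authors deposited 1 table per library, in which, per the file headers, the expected count is RSEM's estimated read count per gene, TPM is scaled by length, and effective length is another column. No strand setting for counting is given in the sources used here. Of the 10 genes, 6 overlap other GENCODE M21 genes by their GENCODE spans, most of them on the opposite strand, and their counts are uncertain to that extent. By these spans Dusp6, Dusp7, Dusp18 and Dusp26 overlap none. RefSeq spans give other overlaps. Those of Dusp1 and Dusp10 do not reach the genes that overlap their GENCODE spans, while that of Dusp18 overlaps 4921536K21Rik by 164 bases.

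Expected counts were rounded (0.765% to 0.930% per library were not whole, tolerance 0.001) and tested over all genes with edgeR 4.0.16 under R 4.3.3 (filterByExpr, TMM scaling, quasi-likelihood F test with robust dispersion, group as the only term, Benjamini-Hochberg adjustment, threshold 0.05). The test was checked on simulated counts. CPM uses the TMM-scaled library size. A count of 0 allows up to 0.0875 to 0.134 CPM (3 counts, counting error only). Values within runs are differences of mean log2 CPM with a prior count of 2. Paired libraries of a group had a chi-square per degree of freedom of 21.9 to 136, so no pair agreed within sampling noise. Replicates were numbered in accession order.

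The 10 genes and all lists were chosen with earlier results of these data known. Named from each list were the members past the threshold, or else the 2 of lowest p. For likeness, the 5 genes (Dusp18) and 3 genes (Dusp1) of highest r were named, leaving out unnamed gene models (symbols with Gm, LOC or Rik). Alternatives used DESeq2 1.42.0, limma 3.58.1 on log2(TPM + 1) and log2(TPM + 0.1), other scaling and filters, effective length as an offset, the run as a block, and fewer libraries. Promoter sequences and gene coordinates are RefSeq's on GRCm38.p6.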

Additional observations from a re-analysis of the deposited data

Results flagged for a closer look

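In 2 of the 20 groups of 4 values (10 genes in each treatment) 1 library lay far from the other 3 by Dixon's criterion, which chance gives in about 1 group of 20. Both were placebo replicate 3. Dusp6 was at 27.7 CPM there against 18.6 to 20.1 CPM in the other placebo libraries. Dusp13 was at 77.3 CPM there against 122 to 127 CPM.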

How the results depend on the processing

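The Dusp18 log2 fold change stayed between -1.52 and -1.15 over 17 alternatives, and 0 of the 9 other genes passed the threshold under any of them. Over all genes edgeR called 0 lower and 0 higher. DESeq2 called 111 lower and 13 higher, and the fit with the run as a block 3 lower, which included Tnnt1 and Pdlim1. Dusp18 was chosen from this contrast, so neither its range over the alternatives nor its presence in such counts is a test of it. With 1 library left out edgeR called 0 to 5 lower; the 5 came without placebo replicate 3 (Tnnt1, Tnni1, Tnnc1, Myl2 and Atp2a2). Without praliciguat replicates 3 and 4 together, chosen after seeing the data, it called 79 lower and 6 higher, and at an adjusted p under 0.1 it called 11 lower. The causes were not tested. With 1 library left out, the log2 fold change ranged from -0.55 to 0.29 for Dusp26 (-0.72 with the run as a block, -0.62 and -0.59 by limma on TPM), from -0.20 to 0.095 for Dusp8 and from -0.18 to 0.054 for Dusp16. Without praliciguat replicates 3 and 4 these genes were at 0.78, 0.29 and 0.088. The other 6 genes kept their direction in all 17. No paired analysis was possible because the replicate numbers were given in accession order and pair nothing. Depth limits the scarce genes Dusp2, Dusp5 and Dusp9 in particular.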
